A study of Mus musculus with 24 samples.

Results

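Heart RNA was compared between 6 libraries from mice that had swum and 6 libraries from mice kept at rest, all under the empty viral vector and all taken 3 weeks after myocardial infarction. These 12 libraries were chosen by their group label alone, out of 24 in the series. Of the 21878 genes of the deposited count table, the 13501 kept by an expression filter were tested. All the animals were ovariectomised mice, a model of the loss of ovarian hormones, and all received AAV9, an adeno-associated virus used to carry genes into the heart. The rest group is labelled AAV9-Empty+Control+MI-3W and the swimming group AAV9-Empty+Swim+MI-3W, so swimming is what the labels set apart between them. The other groups carried AAV9-OE miR-21, a vector that overexpresses the microRNA miR-21, at rest (6 libraries) and after swimming (5 libraries with counts, with 1 library not analysed here).

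The labels used here give no strain, age, swimming schedule or heart region, so the distance of each sample from the scar is not known. Whether the libraries are from different mice is not stated, and p-values therefore measure the spread between libraries. That spread was estimated from all 23 libraries with counts, those of the miR-21 groups included. The numbers in the sample titles form a lower series in the rest group and a higher, separate series in the swimming group. What that number series stands for is not stated, and in these 12 libraries it cannot be told apart from swimming. Each of the 12 libraries held between 13343385 and 14657630 counts. The label heart matched the counts, since 14 cardiomyocyte marker genes such as Myh6 and Tnnt2 summed to between 98627 and 142956 counts per 1000000 (CPM) at rest and between 118351 and 138564 CPM after swimming.

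A heart attack kills part of the ventricular wall, and the dead muscle is replaced by a collagen scar laid down by activated fibroblasts. Surviving muscle raises stress genes such as the natriuretic peptides, macrophages clear debris, and capillaries around the scar regrow. Swimming is a form of endurance training, which is known in rodents for raising cardiac capillary supply and fuel oxidation. Adult cardiomyocytes rarely divide, while endothelial cells, fibroblasts and immune cells of the heart can, so RNA of mitotic genes in a whole heart comes from few cells. In bulk RNA, fewer cells of a type and less RNA per cell cannot be told apart, and this holds for every gene group below.

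Most of the listed genes of mitosis rose after swimming. Some capillary endothelial and pericyte genes rose by smaller amounts, and some genes for secreted products of scar tissue, complement and fat fell. In edgeR's quasi-likelihood test, 564 of 13501 tested genes rose (4.18%) and 443 fell (3.28%) at a Benjamini-Hochberg adjusted p below 0.05, the threshold behind every "rose" and "fell" below. The 1007 changed genes make 7.46% of those tested. The median log2 difference was 0.49 among the genes that rose and -0.59 among those that fell, against -0.0048 over all tested genes. More than a 2-fold change was met by 102 of the risers and 145 of the fallers. In 391 genes (2.9%) all 6 swimming libraries lay above all 6 rest libraries, and in 227 genes (1.68%) all 6 lay below.

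The rest libraries varied more among themselves than the swimming libraries did. The median SD of log2 CPM was 0.195 at rest and 0.143 after swimming, and 72.3% of tested genes had the larger SD at rest. Rest replicates 2 and 5, together with replicate 2 of the swimming group under miR-21, held the highest levels of the adipocyte genes Adipoq, Cidec, Cfd and Car3. Without these 3 libraries, 1555 genes changed. With any 1 of rest replicates 4 and 5 and swimming replicates 1, 2 and 5 dropped it was 607 to 654. Dropping only replicate 2 of the miR-21 swimming group gave 1922. With the title number series as a term in the model, 134 genes rose and 30 fell. That term can be estimated only from miR-21 swimming replicates 3 to 5 against replicates 1 and 2, and replicate 2 is one of the adipocyte-high libraries.

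**Figure D1:**
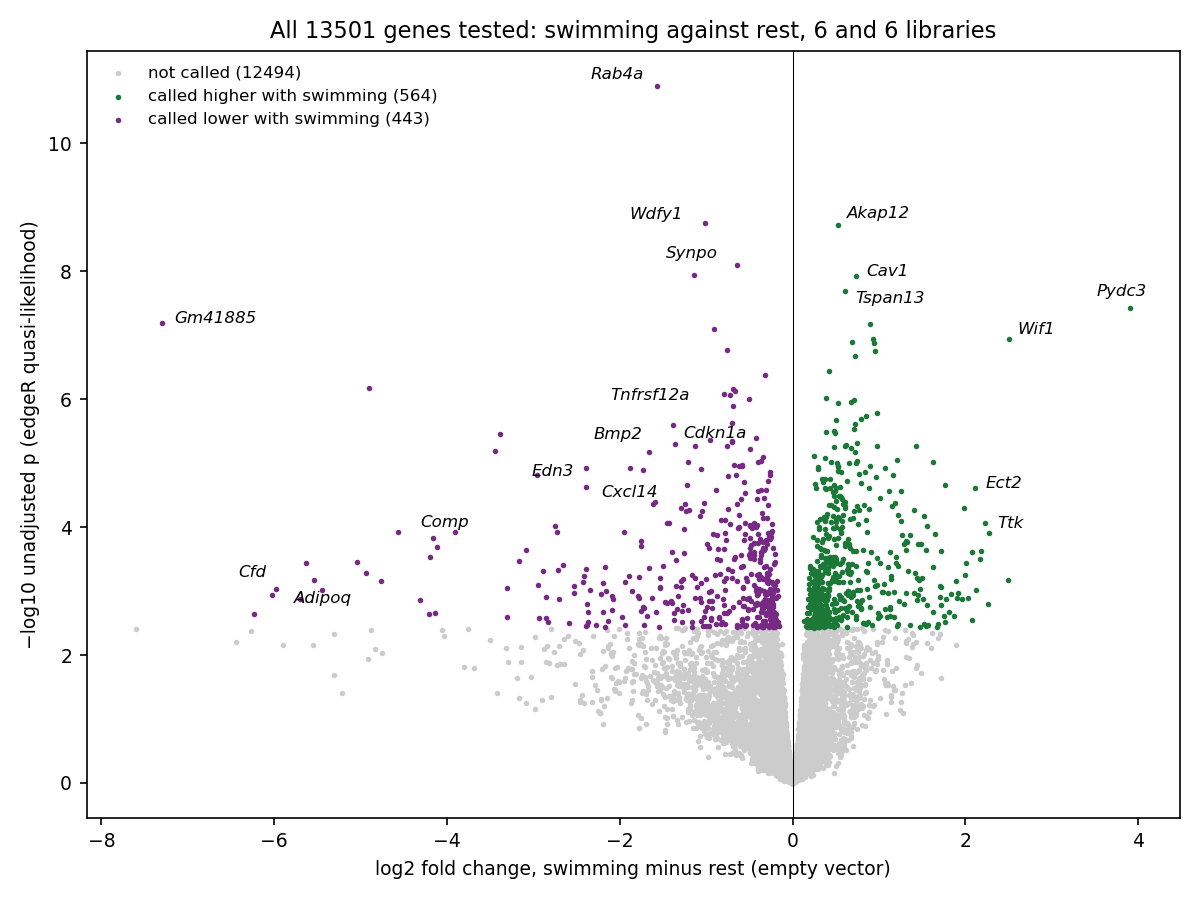
Each point is a tested gene, with the log2 difference of swimming minus rest under the empty vector on the x axis and -log10 of the unadjusted p on the y axis. Coloured points passed an adjusted p of 0.05, 564 to the right and 443 to the left, and the falls reach larger sizes than the rises.

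Genes of the mitotic spindle moved in 1 direction. Of 28 tested genes of the spindle and kinetochore, the protein complex that ties chromosomes to spindle fibres, 16 rose and none fell (4.18% of all tested genes rose), and the median log2 difference was 1.35. Of 32 tested genes for mitotic kinases and cytokinesis, the final cleavage of a dividing cell, 18 rose and none fell, with a median of 1.38. The groups were separated by the summed level of all 31 listed spindle genes, tested or not, which ran from 87 to 97.4 CPM at rest and from 135 to 221 CPM after swimming. The summed level of the 33 listed mitotic kinase and cytokinesis genes ran from 111 to 164 CPM at rest and from 165 to 409 CPM after swimming, highest in swimming replicates 2 and 5.

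Many genes of late cell cycle carry 2 short promoter motifs. The cell cycle homology region (CHR), letters TTTGAA, is bound by complexes that restrict genes to the later phases of the cycle, and the CCAAT box, letters CCAAT, is bound by the factor NF-Y. Promoters of 4 genes that rose are printed here to show both motifs around the start site, from 120 bases before it to 30 bases from it. Sequences and coordinates are from RefSeq on GRCm38.p6, an earlier build than the GRCm39 of the counts, and each is written 5′ to 3′ on the gene's own strand. Capitals mark a CHR or a CCAAT box, which on the opposite strand read TTCAAA and ATTGG.
Ttk, chr9:83834569-83834718, plus strand: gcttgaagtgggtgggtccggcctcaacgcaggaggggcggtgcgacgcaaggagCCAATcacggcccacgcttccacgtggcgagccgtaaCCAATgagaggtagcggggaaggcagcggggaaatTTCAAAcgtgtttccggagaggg
Racgap1, chr15:99651627-99651776, minus strand: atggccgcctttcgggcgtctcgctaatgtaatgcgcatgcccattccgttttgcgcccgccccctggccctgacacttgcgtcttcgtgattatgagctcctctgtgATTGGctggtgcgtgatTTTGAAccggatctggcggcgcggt
Kif23, chr9:61946770-61946919, minus strand: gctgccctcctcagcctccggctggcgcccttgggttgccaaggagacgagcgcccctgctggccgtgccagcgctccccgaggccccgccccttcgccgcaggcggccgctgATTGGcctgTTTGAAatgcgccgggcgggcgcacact
Cenpf, chr1:189688057-189688206, minus strand: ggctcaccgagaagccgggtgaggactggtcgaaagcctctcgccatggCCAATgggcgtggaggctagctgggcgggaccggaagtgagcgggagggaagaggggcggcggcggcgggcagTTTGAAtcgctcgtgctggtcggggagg

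Counting the start site as 1, the CHR begins at position 8 in Ttk, 6 in Racgap1 and 3 in both Kif23 and Cenpf. Over the full searched window, from 250 bases before the start to 50 bases after it and on both strands, TTTGAA was found for 20 of the 28 mitotic genes that rose and have a RefSeq promoter (71.4%), out of 34 in the 2 lists. The same letters were found for 14.3% of the 10726 tested genes with a promoter. The CHR and the CCAAT box occurred together for 53.6% of the mitotic risers and for 5.8% of all tested genes with a promoter. The 2 motifs can overlap by at most 1 base. Of all 60 tested genes of the 2 mitosis lists, 50 have a promoter and 66% of those hold the CHR, so the motif goes with membership of the lists as well as with the change. Among DNA replication genes the CHR was as frequent as in other genes, at 16.7% of 30. A match in these letters is a description of the sequence and not evidence of binding.

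Ttk, a kinase of the spindle checkpoint that holds division until chromosomes are attached, measured 0.0744, 0.325 and 0.869 CPM (lowest, median and highest) at rest and 1.04, 1.7 and 3.07 CPM after swimming. Every swimming library lay above every rest library, and the log2 difference was 2.28 ± 0.49 (SE), with an edgeR adjusted p of 0.00707. Ect2, the exchange factor that starts the cleavage furrow, ran from 0.67 over 0.806 to 1.38 CPM at rest and from 2.15 over 3.67 to 5.66 CPM after swimming. It rose by 2.12 ± 0.40 on the log2 scale (edgeR adjusted p = 0.00282). Its partner Racgap1 had 2.79, 3.74 and 5.15 CPM at rest and 5.72, 9.58 and 19 CPM after swimming, a log2 difference of 1.55 ± 0.33 (edgeR adjusted p = 0.00611). Racgap1 and the kinesin Kif23 together form the centralspindlin complex, which bundles the fibres between separating chromosomes.

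Kif23 ran from 2.69 over 2.97 to 3.3 CPM at rest, a narrow range, and from 4.16 over 7.07 to 14.9 CPM after swimming. It rose by 1.49 ± 0.33 (edgeR adjusted p = 0.00908), and its libraries did not overlap. Cenpf, a kinetochore protein of late interphase and mitosis, was the most abundant of these in CPM, with 4.38, 10.9 and 17 CPM at rest against 18, 25.3 and 38.8 CPM after swimming. It rose by 1.32 ± 0.30 (edgeR adjusted p = 0.0106), with the lowest swimming library just above the highest rest library. Kif4, a chromosome-bound motor, rose by 1.40 ± 0.28 (edgeR adjusted p = 0.00446) and Nusap1, a spindle-bundling protein, by 1.72 ± 0.40 (edgeR adjusted p = 0.0106), both without overlap between groups. Casc5, the kinetochore scaffold also named Knl1, rose by 2.01 ± 0.48 and the kinesin Kif18b by 2.17 ± 0.51, and Kif18b libraries overlapped.

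**Figure D2:**
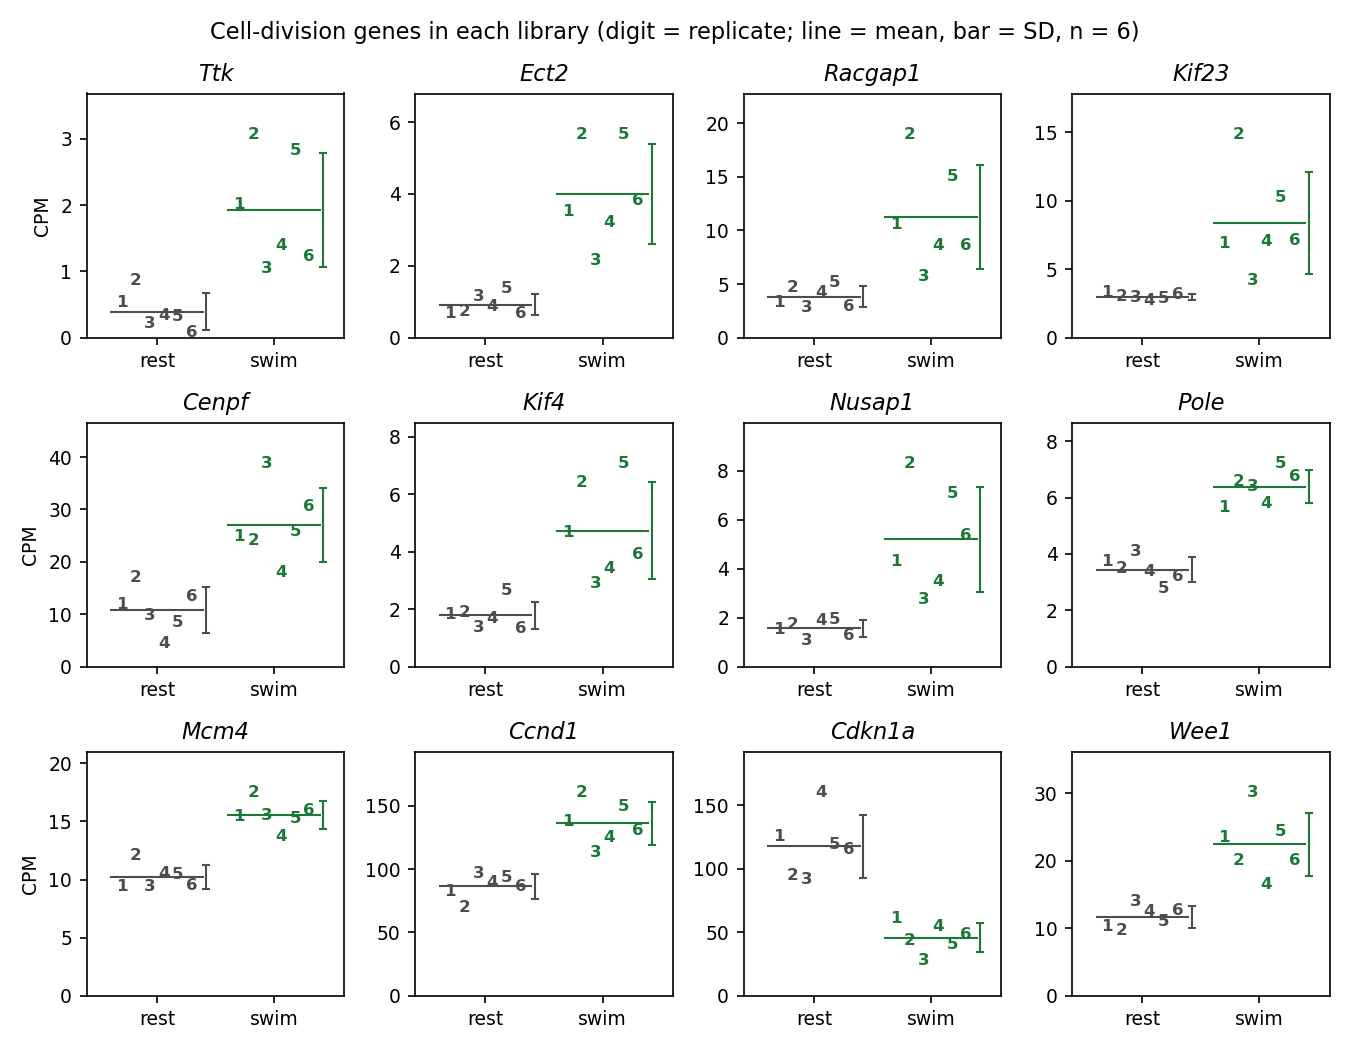
Each panel is 1 gene, with CPM on the y axis and the 6 rest and 6 swimming libraries side by side. Each point is drawn as its replicate number, each horizontal line is the group mean and each vertical bar is the SD. The swimming points lie above the rest points in Ttk, Ect2, Racgap1, Kif23, Cenpf, Kif4, Nusap1, Pole, Mcm4, Ccnd1 and Wee1 and below them in Cdkn1a, and replicates 2 and 5 are the highest swimming points in most mitotic panels.

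Leaving out any 1 rest library, or swimming replicate 1, 2 or 5, left 6 to 10 of the spindle genes past the threshold. For mitotic kinases and cytokinesis, 7 rose without swimming replicate 2 or without replicate 5, 10 without rest replicate 4 and 9 without rest replicate 6. The miR-21 swimming replicate 2 is in neither group compared, and enters through the shared gene filter, scaling and estimate of spread. Without it, 21 spindle genes and 26 mitotic kinase and cytokinesis genes rose. Without the 3 adipocyte-high libraries the counts were 20 and 27, and with the title number series as a term 19 and 21. In every one of these settings no gene of either list fell. For single genes 27 alternatives were counted besides the title series. They were RLE scaling, DESeq2, the 12 libraries alone, the 3 adipocyte-high libraries left out and each of the 23 libraries left out. Runs with no filter, a 1 CPM mean filter, voom quality weights and a fold minimum of 1.5 were not followed gene by gene. Each gene named so far in this account of mitosis kept its call in all 27. With a minimum fold of 1.5 built into the test, 2 genes in all rose.

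A smaller part of the genes that copy DNA rose. Of 37 tested genes of DNA replication, 9 rose and none fell, with a median log2 difference of 0.45. All 37 lay above 0. The summed level of all 38 listed genes separated the groups, from 222 to 282 CPM at rest and from 296 to 392 CPM after swimming. Pole, the catalytic subunit of the polymerase that copies the leading strand, measured 2.76, 3.42 and 4.07 CPM at rest and 5.65, 6.47 and 7.22 CPM after swimming. It rose by 0.89 ± 0.11 (edgeR adjusted p = 8.85e-05), with tight and separate groups. Mcm4, a subunit of the replicative helicase, rose by 0.60 ± 0.10 (edgeR adjusted p = 0.00133), from a median of 9.97 CPM to a median of 15.5 CPM. Uhrf1, which helps in copying DNA methylation onto new strands, rose by 1.36 ± 0.30 (edgeR adjusted p = 0.00753). Leaving out miR-21 swimming replicate 2 raised the count of replication genes that rose to 20, and leaving out the 3 adipocyte-high libraries raised it to 22.

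Of 17 tested genes of recombination repair, 5 rose and none fell. That count fell to 1 without rest replicate 4, to 2 without swimming replicate 5, and to 3 without any of rest replicates 3, 5 and 6 or swimming replicates 1, 2 and 6. Outside these lists Troap, a spindle-pole protein, rose by 1.98 ± 0.40 (edgeR adjusted p = 0.00428). Tmpo, a protein of the inner nuclear membrane, rose by 0.43 ± 0.06 (edgeR adjusted p = 0.000258) and Pola2, a subunit of the polymerase that primes replication, by 0.38 ± 0.06 (edgeR adjusted p = 0.000495).

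Regulators of the step from G1 into DNA synthesis changed in both directions. Ccnd1, the cyclin that drives that step, measured 69.5, 87.9 and 96.5 CPM at rest and 113, 134 and 161 CPM after swimming. It rose by 0.66 ± 0.12 (edgeR adjusted p = 0.00181), and its 6 swimming libraries lay above all 17 other libraries of the series. Cdkn1a, the p53-induced inhibitor p21 that blocks cyclin-dependent kinases, measured 91.3, 117 and 160 CPM at rest and 27.6, 45.8 and 60.8 CPM after swimming. It fell by 1.36 ± 0.22 (edgeR adjusted p = 0.00133), and its 6 rest libraries lay above all 17 others. Of 19 tested G1 cyclins and inhibitors, 3 rose (Ccnd1, the growth-arrest gene Gadd45a and the inhibitor Cdkn2c) and 2 fell, Cdkn1a and 1 other that was lost in 9 of the 23 runs without a library. Their median was 0.018. Wee1, a kinase that delays entry into mitosis and also an output of the circadian clock, measured 9.63, 11.7 and 14 CPM at rest and 16.4, 21.8 and 30.1 CPM after swimming. It rose by 0.94 ± 0.13 (edgeR adjusted p = 0.00012), and its rest libraries lay below all 17 others.

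Some capillary endothelial genes rose by small amounts. Of 21 tested markers of capillary endothelium, the cells that line the smallest vessels, 8 rose and none fell, with a median log2 difference of 0.23. Their summed level ran from 4457 to 5535 CPM at rest and from 4975 to 5659 CPM after swimming, so the ranges overlapped. Icam2, an adhesion molecule of endothelium, measured 20.5, 24.9 and 28.7 CPM at rest and 29.8, 37.5 and 46.1 CPM after swimming. It rose by 0.58 ± 0.12 (edgeR adjusted p = 0.00403), without overlap. Cdh5, the cadherin of endothelial junctions, rose by 0.44 ± 0.09 (edgeR adjusted p = 0.00406) and Erg, a transcription factor that maintains endothelial identity, by 0.48 ± 0.09 (edgeR adjusted p = 0.00267), each with slight overlap. Rasip1, needed for vessel lumens to open, rose by 0.31 ± 0.07 (edgeR adjusted p = 0.00634). The count of 8 dropped to 4 or 5 without rest replicate 3, 4 or 6 or swimming replicate 2, 5 or 6, and to 2 with the title number series as a term.

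No marker of arterial endothelium passed among 12 tested, with a median of -0.12, and none passed among 13 markers of venous endothelium and endocardium, where 1 rose without the 3 adipocyte-high libraries. For these and the other counts of 0 given below, 3148 of all 13501 genes had an unadjusted p under 0.05. Of 9 lymphatic markers 2 fell: Ccl21a, the chemokine that draws immune cells into lymph vessels, by 1.59 ± 0.31 (edgeR adjusted p = 0.00393), and Mmrn1. Mmrn1 passed in 24 of the 27 alternatives, and lost its call without rest replicate 5, without swimming replicate 6 or without the 3 adipocyte-high libraries.

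Caveolae, the flask-shaped pits that are dense in endothelial membranes, gave some of the best separated values. Cav1, their main coat protein, measured 319, 363 and 392 CPM at rest and 506, 567 and 708 CPM after swimming. It rose by 0.73 ± 0.09 (edgeR adjusted p = 2.67e-05), and every swimming library lay above all 17 others. Cav2, its partner, measured 49.6, 61.5 and 67.7 CPM at rest against 80.7, 83 and 91.1 CPM and rose by 0.48 ± 0.08 (edgeR adjusted p = 0.00104). Ptrf, the cavin that shapes the pits, rose by 0.24 ± 0.06 (edgeR adjusted p = 0.0262), and its swimming libraries too lay above all 17 others, though it passed in only 21 of 27 alternatives. Meox2, a homeobox factor of cardiac and muscle capillaries, measured 19.4, 20.3 and 23.1 CPM at rest and 28.9, 33.8 and 38.7 CPM after swimming. It rose by 0.69 ± 0.09 (edgeR adjusted p = 0.00012), without overlap. Sox7, a transcription factor of vessel formation, measured 22.8, 34.5 and 42.6 CPM at rest and 42, 44.3 and 69.6 CPM after swimming. Its log2 difference of 0.57 ± 0.18 did not pass (edgeR adjusted p = 0.0546), and passed in 5 of the 27 alternatives, namely DESeq2 and leaving out rest replicate 3 or 6 or miR-21 swimming replicate 2 or 3.

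Among 29 tested genes of vessel growth, 3 rose and 1 fell, with a median of 0.13. Apln, the peptide made by sprouting endothelial tips, measured 8.96, 12 and 16.1 CPM at rest and 16.1, 26.9 and 31.3 CPM after swimming, and rose by 1.02 ± 0.20 (edgeR adjusted p = 0.00349). Nrp2, a co-receptor for vascular growth factors, rose by 0.58 ± 0.12 (edgeR adjusted p = 0.00515). Leaving out miR-21 swimming replicate 2 or 3 raised the rises from 3 to 6 or 5. Kitl, the ligand of the receptor Kit, measured 65.8, 82.5 and 101 CPM at rest and 116, 124 and 139 CPM after swimming and rose by 0.61 ± 0.10 (edgeR adjusted p = 0.00133). Kit itself rose by 0.67 ± 0.17 (edgeR adjusted p = 0.0172), with overlapping libraries.

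Pericytes are the contractile cells wrapped around capillaries. The summed level of 11 pericyte markers ran from 1114 to 1497 CPM at rest and from 1536 to 1781 CPM after swimming, without overlap. Rgs5, the gene most used to find them, measured 481, 573 and 700 CPM at rest and 732, 836 and 952 CPM after swimming and rose by 0.56 ± 0.11 (edgeR adjusted p = 0.00342). In all, 3 of the 11 rose and none fell, a count that dropped to Rgs5 alone without any 1 of rest replicates 3 to 6, swimming replicates 1, 2, 5 and 6 or miR-21 rest replicate 1. Smtn, a protein of contractile smooth muscle, rose by 0.57 ± 0.12 (edgeR adjusted p = 0.00634), while 12 smooth muscle markers had a median of -0.012.

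The basement membrane, the sheet on which endothelium and muscle rest, changed in part. Of 23 tested genes 6 rose and 1 fell, with a median of 0.15. Lama5, a laminin chain, measured 124, 178 and 232 CPM at rest and 265, 327 and 356 CPM after swimming, and rose by 0.82 ± 0.16 (edgeR adjusted p = 0.00408). Lamb1, a laminin chain that pairs with it, rose by 0.38 ± 0.07 (edgeR adjusted p = 0.00175), and Nid1, which links laminin to collagen, by 0.35 ± 0.08 (edgeR adjusted p = 0.014). Pxdn, the peroxidase that cross-links basement membrane collagen, measured 108, 135 and 157 CPM at rest and 166, 232 and 254 CPM after swimming and rose by 0.72 ± 0.12 (edgeR adjusted p = 0.000883).

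In 56 genes (0.415% of those tested) the 6 swimming libraries lay above all 17 other libraries of the series, and in 20 genes (0.148%) they lay below all 17. The rest libraries stood above all others in 5 genes (0.037%) and below all others in 14 (0.104%). Of the 56 genes 53 rose and of the 20 all fell. These directions were fixed by the choice, because the 17 others include the 6 rest libraries. The 17 also include both miR-21 groups, whose levels the swimming contrast does not compare.

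Rab4a, a small GTPase that returns receptors from endosomes to the cell surface, measured 12.2, 13.5 and 14.4 CPM at rest and 3.34, 4.71 and 5.51 CPM after swimming. It fell by 1.57 ± 0.13 (edgeR adjusted p = 1.68e-07), the smallest adjusted p of any gene named here. Under miR-21 it measured 13.8, 16.6 and 18.4 CPM at rest and 10.5, 15.9 and 18.5 CPM after swimming, and the difference between the swimming effects was 1.48 ± 0.18 (edgeR interaction adjusted p = 0.00026). Wdfy1, an endosomal protein, fell by 1.02 ± 0.11 (edgeR adjusted p = 8.39e-06), from 30.3, 34.6 and 39.6 CPM to 14, 15.5 and 25.2 CPM. Its miR-21 libraries ran from 30.1 to 35.1 CPM, and the interaction was 1.02 ± 0.15 (edgeR adjusted p = 0.00311). Dynlt1b, a dynein light chain, fell by 1.14 ± 0.13 (edgeR adjusted p = 2.67e-05), from 7.14, 11.1 and 12.5 CPM to 3.9, 4.59 and 5.59 CPM. Its interaction of 0.71 ± 0.19 did not pass (edgeR adjusted p = 0.0635). It has near-identical copies in the mouse genome, between which reads can be divided.

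The predicted gene Gm41885, singled out after its values were seen, had 1087 counts over the 6 rest libraries and 6 over the 6 swimming libraries. Its levels were 3.94, 9.84 and 30.1 CPM at rest and 0, 0.0697 and 0.153 CPM after swimming, and it also lay between 3.13 and 21.4 CPM in all miR-21 libraries. Pydc3, an interferon-inducible member of a family whose near-identical copies can share reads, went the other way, with 20 counts at rest and 299 after swimming. It measured 0.0674, 0.1 and 0.602 CPM at rest and 2.65, 3.52 and 4.44 CPM after swimming and rose by 3.91 ± 0.49 (edgeR adjusted p = 6.36e-05). Under miR-21 no Pydc3 library exceeded 0.471 CPM, yet the interaction of -2.52 ± 1.04 did not pass (edgeR adjusted p = 0.171). Nnt, the mitochondrial transhydrogenase that makes NADPH, measured 740, 994 and 1098 CPM at rest and 504, 508 and 615 CPM after swimming. It fell by 0.83 ± 0.17 (edgeR adjusted p = 0.00556), without overlap between these groups.

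Akap12, an anchor for protein kinase A, measured 58.2, 64 and 69.8 CPM at rest and between 90.5 and 92.7 CPM in all 6 swimming libraries. It rose by 0.53 ± 0.06 (edgeR adjusted p = 8.39e-06), with an interaction of -0.46 ± 0.08 (edgeR adjusted p = 0.0106). Mest, an imprinted gene of growing tissue, rose by 1.63 ± 0.28 (edgeR adjusted p = 0.00181), from 7.55, 15.4 and 17.7 CPM to 26.9, 40.5 and 66.9 CPM, with an interaction of -1.86 ± 0.42 (edgeR adjusted p = 0.0444). Tspan2, a membrane organiser, rose by 0.93 ± 0.12 (edgeR adjusted p = 0.00012), with an interaction of -0.99 ± 0.18 (edgeR adjusted p = 0.0135). The interaction also passed for Cav1 at -0.76 ± 0.12 (edgeR adjusted p = 0.00375) and for Kitl at -0.73 ± 0.15 (edgeR adjusted p = 0.0291). These interactions of Akap12, Tspan2 and Cav1 passed in all 23 runs that left out a library, as did those of Rab4a, Wdfy1, Gm41885 and Cav2. Those of Mest and Kitl passed in 10 and 17 of the 23. Igf2, the growth factor from an imprinted locus, rose by 1.32 ± 0.29 (edgeR adjusted p = 0.0084), from 12.6, 27.5 and 30.9 CPM to 39.6, 52.6 and 130 CPM, but its interaction of -1.10 did not pass (edgeR adjusted p = 0.145).

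**Figure D3:**
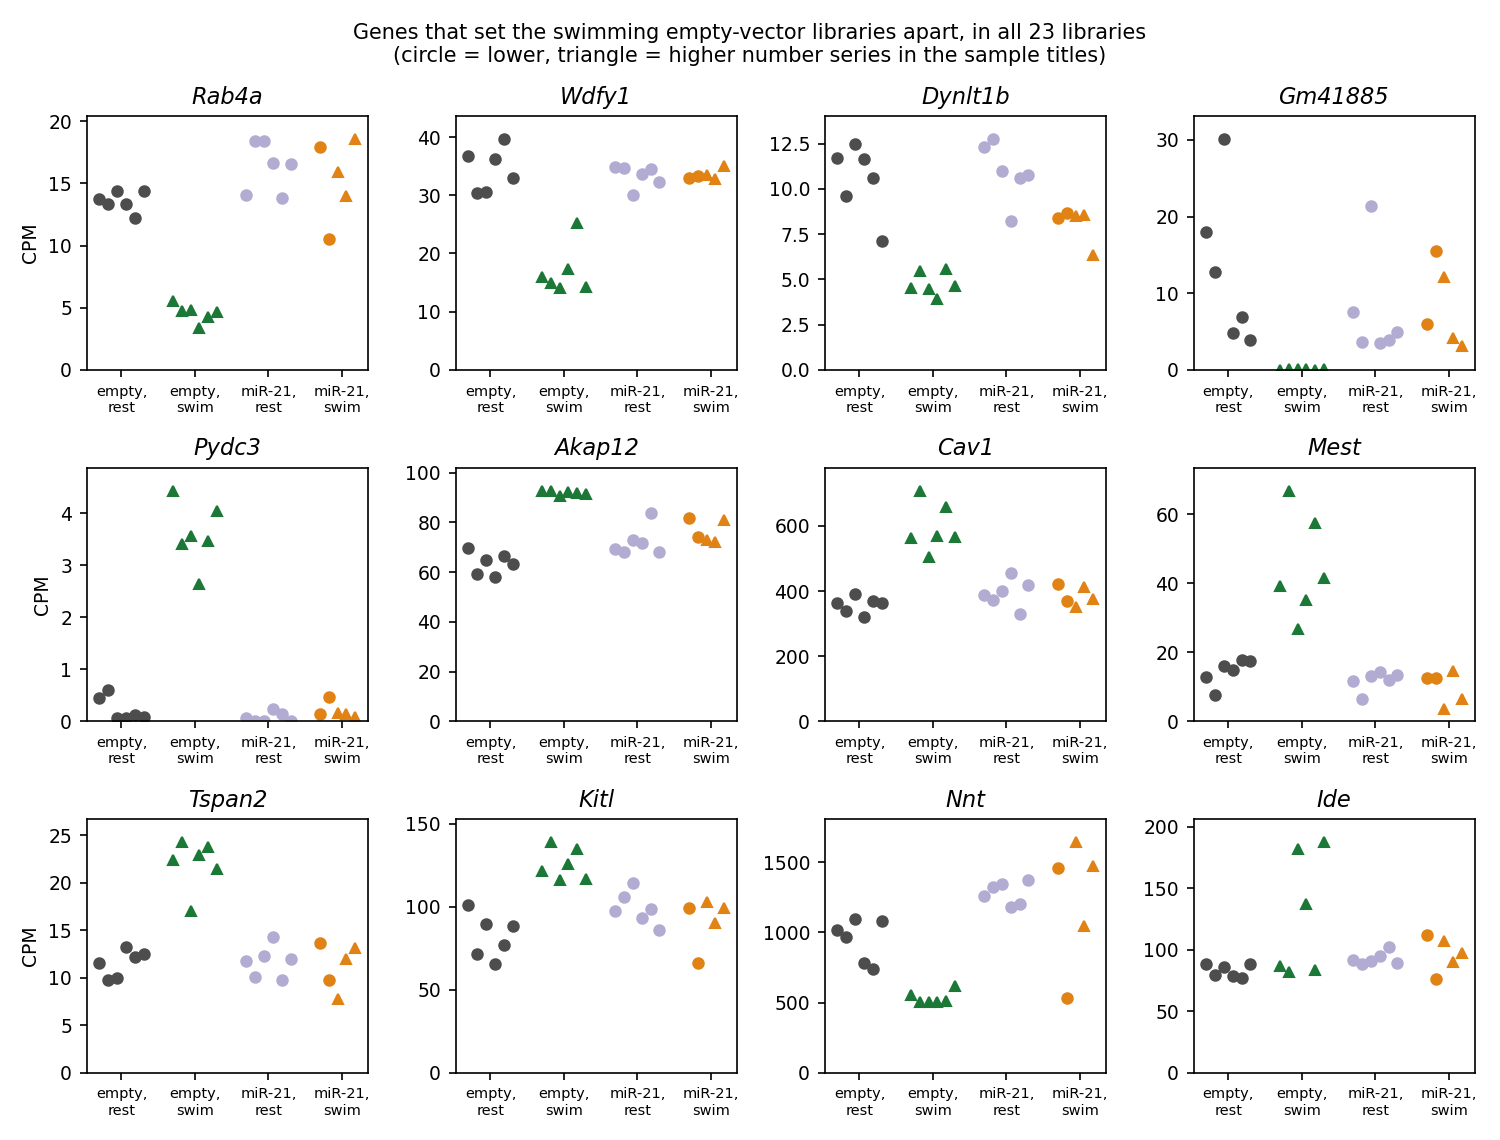
Each panel is 1 gene with CPM on the y axis and the 4 groups on the x axis, 1 point per library, where circles and triangles mark the 2 number series of the sample titles. The swimming libraries under the empty vector lie below all others in Rab4a, Wdfy1, Dynlt1b and Gm41885. They lie above all others in Pydc3, Akap12, Cav1, Mest, Tspan2 and Kitl. The triangles of the miR-21 swimming group are among those others. Their separation from the empty-vector swimming libraries in these panels thus follows from the choice of genes.

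In the miR-21 swimming group, replicates 3 to 5 carry title numbers of the same series as the swimming libraries under the empty vector. With that series as a term, Rab4a, Wdfy1, Dynlt1b, Gm41885, Pydc3, Akap12, Cav1 and Tspan2 kept adjusted p-values under 0.05. All of these were shown as genes in which the empty-vector swimming libraries stand apart from all 17 others. The libraries that estimate the term are among the 17, so the choice itself favoured this outcome. Ttk, Ect2, Racgap1, Kif23, Kif4, Nusap1, Mcm4, Uhrf1, Ccnd1, Erg, Icam2, Apln, Nrp2, Kit and Nnt also kept theirs. Cenpf, Pole, Cdkn1a, Wee1, Cav2, Meox2, Cdh5, Rgs5, P4ha1 and Wif1 were among those that did not. Of the 121 genes named here that passed without the term, 33 passed with it.

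Some products of scar-forming fibroblasts fell, and these genes were very uneven among rest libraries. Of 24 markers of activated fibroblasts, the cells that build scar, 7 fell and none rose (3.28% of all tested genes fell), with a median log2 difference of -1.19. Their summed level was between 1081 and 3573 CPM at rest and between 855 and 1949 CPM after swimming, so the ranges overlapped, with rest replicates 2, 4 and 5 highest. Comp, an extracellular protein that organises collagen fibres, measured 33.8, 113 and 304 CPM at rest and 1.26, 3.77 and 29.6 CPM after swimming. It fell by 4.16 ± 0.89 (edgeR adjusted p = 0.00802), without overlap. Wisp2, a secreted matrix protein of fibroblasts, fell by 2.75 ± 0.57 (edgeR adjusted p = 0.00611), from 29.5, 55.2 and 154 CPM to 6.42, 8.51 and 23.2 CPM. Timp1, an inhibitor of matrix-cutting enzymes that rises in injured heart, fell by 2.41 ± 0.59 (edgeR adjusted p = 0.0179), from 18.4, 40.6 and 69.8 CPM to 4.44, 5.64 and 18.4 CPM.

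The fibrillar collagens themselves gave fewer calls than those secreted proteins. Of 25 genes of fibrillar collagen and matrix only Col11a1 and Dcn fell, 24 of the 25 lay below 0 and the median was -0.82. Their summed level ran from 3427 to 11737 CPM at rest and from 2834 to 5953 CPM after swimming. Neither call was stable, since Dcn passed in 9 of 27 alternatives and Col11a1 in 14 of 25, and the count was 0 without rest replicate 2, 4 or 5, without any swimming replicate other than 4, or without miR-21 rest replicate 1 or 5 or miR-21 swimming replicate 4. It was also 0 in the 12 libraries alone and without the adipocyte-high libraries, where the median was -0.40. Without swimming replicate 4, the swimming library with the highest activated fibroblast and fibrillar collagen sums, 4 fell. The general fibroblast list had a smaller median of -0.29, with Fbln1, a fibulin of the matrix, down by 1.29 ± 0.26 (edgeR adjusted p = 0.00432) and Abca8a, a lipid transporter of resting fibroblasts, up by 0.57 ± 0.11 (edgeR adjusted p = 0.00354).

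Enzymes that mature collagen fell in part. Of 23 tested, 5 fell and none rose, with a median of -0.25. P4ha1, which hydroxylates collagen and is induced by low oxygen, measured 75.3, 92.7 and 108 CPM at rest and 44, 48.2 and 64.1 CPM after swimming. It fell by 0.91 ± 0.12 (edgeR adjusted p = 9.72e-05), with tight groups that did not overlap. P3h2, which modifies another position of collagen, fell by 1.24 ± 0.25 (edgeR adjusted p = 0.00403) and P4ha3 by 2.72 ± 0.66 (edgeR adjusted p = 0.0158). The count was 3 without rest replicate 4 or swimming replicate 3 and 9 without miR-21 swimming replicate 2. Of 30 matrix proteases and inhibitors 5 fell and 1 rose. Mmp3, a protease that opens the matrix, fell by 3.91 ± 0.82 (edgeR adjusted p = 0.00704), from 9.6, 30.6 and 256 CPM to 2.29, 5.06 and 7.68 CPM, and Adam19, a membrane-bound protease of the developing heart, rose by 0.60 ± 0.14 (edgeR adjusted p = 0.009). The 5 falls became 2 or 3 without any of rest replicates 2, 4 and 5 or swimming replicates 1, 2, 3, 5 and 6, and 10 when miR-21 swimming replicate 2 was left out. With the 3 adipocyte-high libraries left out, 3 protease genes fell and 2 rose.

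The activated fibroblast count of 7 was 4 without swimming replicate 1, 12 without swimming replicate 4, 3 in the 12 libraries alone and 6 without the 3 adipocyte-high libraries. With the title number series as a term no gene of the activated fibroblast, fibrillar collagen, collagen maturation or protease lists passed, and the median of the activated fibroblast list turned from -1.19 to 0.10. Markers of other cells moved with these falls. The summed level of 13 macrophage markers ran from 582 to 2789 CPM at rest and from 499 to 953 CPM after swimming, highest in rest replicates 2, 5 and 4. The summed level of 13 mesothelial markers, genes of the heart's outer lining, ran from 27.8 to 86.6 CPM at rest and from 26.1 to 33.8 CPM after swimming, again highest in rest replicates 4, 5 and 2. Their part in the falls was not tested.

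**Figure D4:**
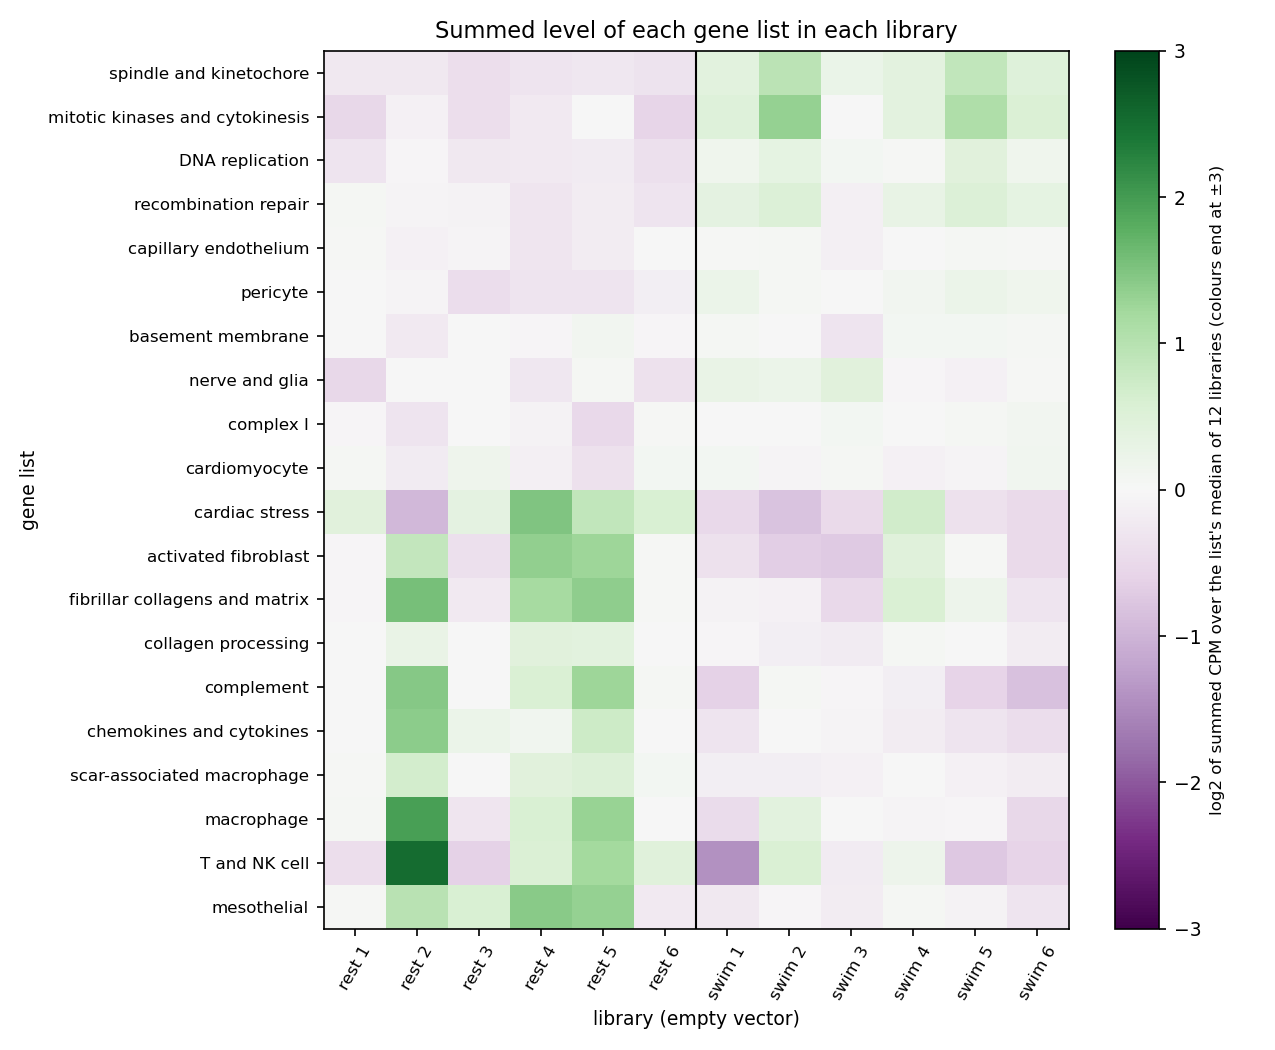
Rows are 20 gene lists and columns the 6 rest and 6 swimming libraries. The colour is the log2 of the list's summed CPM in a library relative to the list's median over the 12 libraries. Rest replicates 2, 4 and 5 are the columns with high macrophage, activated fibroblast and mesothelial levels, and swimming replicates 2 and 5 are those with the highest mitotic levels.

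Genes that the working muscle raises under stress were lower in the median, with calls for a few. Of 19 cardiac stress genes 4 fell and none rose, all 19 lay below 0, and the median was -0.77. The summed level ran from 5412 to 29387 CPM at rest and from 6014 to 16844 CPM after swimming. Tnfrsf12a, the receptor of the cytokine TWEAK, measured 65, 143 and 208 CPM at rest and 40.8, 49.1 and 87.8 CPM after swimming. It fell by 1.38 ± 0.22 (edgeR adjusted p = 0.000913), with some overlap. Flnc, a filamin that holds the sarcomere's edge, fell by 0.64 ± 0.13 (edgeR adjusted p = 0.00403) and Xirp1, a repair protein of the discs between muscle cells, by 0.49 ± 0.11 (edgeR adjusted p = 0.00802). Nppa, the atrial natriuretic peptide, did not pass, at 273, 2323 and 6699 CPM at rest and 261, 637 and 2063 CPM after swimming (edgeR adjusted p = 0.129). The summed level of 11 atrial and conduction markers, Nppa among them, was also uneven. It ran from 386 to 6802 CPM at rest, highest in replicate 4, and from 346 to 2155 CPM after swimming. None of the 8 tested atrial and conduction markers passed, and its part in the stress values was not tested. The count of 4 became 9 without rest replicate 2, 12 without swimming replicate 4, 7 without miR-21 swimming replicate 2 or by DESeq2, and 9 without the adipocyte-high libraries.

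Contractile genes of the ventricle were not called. None of 24 sarcomere genes passed, with a median of 0.061. Once the adipocyte-high libraries were left out, 4 of them fell and the median was -0.054, while DESeq2 and the 12 libraries alone each gave 1 rise. Tnnt2, cardiac troponin T, measured 6294, 7876 and 8647 CPM at rest and 8986, 9432 and 10761 CPM after swimming. Its libraries did not overlap, yet its log2 difference of 0.33 ± 0.12 did not pass (edgeR adjusted p = 0.0948), and it changed sign with the title number series as a term. Myl1, a myosin light chain of skeletal and fetal muscle, fell by 0.88 ± 0.20 (edgeR adjusted p = 0.0128). Synpo, an actin-bundling protein found in muscle and nerve cells, measured 187, 193 and 221 CPM at rest and 111, 124 and 149 CPM after swimming and fell by 0.64 ± 0.07 (edgeR adjusted p = 2.65e-05). Atp1b1, the beta subunit of the sodium pump, fell by 0.33 ± 0.09 (edgeR adjusted p = 0.0248), and lost its call without swimming replicate 2.

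Some potassium channels that end the action potential rose, most of them with little stability. Of 29 ion channel genes 4 rose and none fell: Kcnd2, Kcna5, Kcnq1 and Kcne1. Kcnd2, a subunit of the fast transient current, measured 4.58, 11 and 15.9 CPM at rest and 15, 20.6 and 28.4 CPM after swimming and rose by 0.97 ± 0.23 (edgeR adjusted p = 0.0126). Kcna5, of the ultrarapid current, rose by 0.74 ± 0.20 (edgeR adjusted p = 0.0292). Kcnd2 kept its call in all 27 alternatives, while Kcna5, Kcnq1 and Kcne1 lost theirs without the 3 adipocyte-high libraries. The count was 1 or 2 without rest replicate 2, 3, 5 or 6, without swimming replicate 1, 3, 5 or 6, or without miR-21 rest replicate 1 or 2.

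Mitochondrial respiratory genes nearly all lay slightly above 0, and none was called. Of 35 genes of complex I of the respiratory chain 34 lay above 0 and none passed, with a median of 0.18. All 35 genes of complexes II to V lay above 0, none passed, and the median was 0.18. The summed level of complex I genes ran from 9302 to 13665 CPM at rest and from 13074 to 14178 CPM after swimming, and the ranges overlapped. Without the 3 adipocyte-high libraries both medians dropped to 0.06, and with the title number series as a term they were -0.17 and -0.19. Of 33 fatty acid oxidation genes none passed, with a median of 0.16. Without the 3 adipocyte-high libraries 6 of them rose and 1 fell, in the 12 libraries alone 5 rose and 2 fell, and by DESeq2 4 rose and 1 fell. In the TCA cycle and ketone list 1 of 30 genes fell: Bdh1, which interconverts ketone bodies, by 0.84 ± 0.21 (edgeR adjusted p = 0.0172).

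Of 37 genes of glycolysis and hypoxia 7 fell and none rose, although the median was only -0.029. Bnip3, a low-oxygen response gene that marks mitochondria for removal, measured 170, 226 and 249 CPM at rest and 130, 150 and 161 CPM after swimming and fell by 0.56 ± 0.10 (edgeR adjusted p = 0.00254). Egln3, an oxygen sensor that is itself induced by low oxygen, fell by 0.66 ± 0.15 (edgeR adjusted p = 0.0122), from 91.9, 111 and 137 CPM to 59.8, 70 and 85.9 CPM. Neither gene's groups overlapped. The count was 4 without rest replicate 4 or swimming replicate 2. P4ha1, described above with the collagen enzymes, is also in this list.

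Genes of several signalling pathways changed. Of 29 genes of the Wnt pathway, which steers tissue growth and repair, 8 fell and 1 rose, with a median of -0.42. The riser was Wif1, a secreted protein that binds and blocks Wnt ligands, which measured 0.572, 1.27 and 1.8 CPM at rest and 3.76, 6.08 and 15.7 CPM after swimming. It rose by 2.51 ± 0.33 (edgeR adjusted p = 0.00012), its swimming libraries lay above all 17 others, and the interaction was -2.37 ± 0.48 (edgeR adjusted p = 0.0291), which passed in 20 of 23 runs without a library. Other secreted Wnt blockers, Sfrp1, Sfrp2, Sfrp4, Frzb and Dkk3, were among the falls, so blockers went in both directions. Sfrp2 and Frzb passed in 9 of 27 alternatives, the others in more. Of the ligands, Wnt9a fell by 0.48 ± 0.11 (edgeR adjusted p = 0.00939). The 8 falls became 2 to 5 without any 1 of rest replicates 2, 4 and 5 or of the swimming replicates other than 4, 5 without the adipocyte-high libraries or in the 12 libraries alone, and 13 without miR-21 swimming replicate 2.

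Of 21 genes of the BMP pathway 4 fell and 1 rose. Bmp2, a ligand that drives bone and valve formation, measured 1.87, 3.96 and 5.46 CPM at rest and 0.817, 1.15 and 1.6 CPM after swimming. It fell by 1.66 ± 0.29 (edgeR adjusted p = 0.00148), without overlap, and the interaction was 2.05 (edgeR adjusted p = 0.0291, passed in 15 of 23 runs without a library). Of 29 TGF-beta and activin genes 3 fell and 1 rose. Inhbb, a subunit of activin B, fell by 0.97 ± 0.22 (edgeR adjusted p = 0.01), and Ltbp1, which stores TGF-beta in the matrix, rose by 0.44 ± 0.09 (edgeR adjusted p = 0.00573). Without miR-21 swimming replicate 2 there were 7 falls in each of these lists. Both lists had 1 or 2 falls without rest replicate 4 or 5 or swimming replicate 1 or 2. The BMP list also had 1 without swimming replicate 5, and the TGF-beta list 1 without swimming replicate 3 and 5 without swimming replicate 4, without the adipocyte-high libraries or by DESeq2.

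Among 31 genes of the FGF, IGF and neuregulin families 6 fell and 2 rose, with 3 falls without rest replicate 4 or 5 or in the 12 libraries alone and 11 without miR-21 swimming replicate 2. Hbegf, a heparin-binding ligand of the EGF receptor, fell by 0.92 ± 0.20 (edgeR adjusted p = 0.00732), and Igfbp6, which binds IGF2, by 1.26 ± 0.26 (edgeR adjusted p = 0.00652), from 31.1, 33.1 and 55.4 CPM to 12.5, 16.4 and 19 CPM. Nrg1, an endothelial and nerve ligand of cardiomyocyte ErbB receptors, fell by 1.90 ± 0.47 (edgeR adjusted p = 0.0179), but not without rest replicate 5 or in the 12 libraries alone. Endothelins, peptides that constrict vessels, fell as well. Edn1 fell by 0.78 ± 0.16 (edgeR adjusted p = 0.00556) and Edn3 by 2.39 ± 0.42 (edgeR adjusted p = 0.00188), the latter from 2.87, 10.4 and 12.7 CPM to 0.644, 1.59 and 2.71 CPM. Agt, the precursor of angiotensin, fell by 0.99 ± 0.22 (edgeR adjusted p = 0.00912), and Grk5, a kinase that silences adrenergic receptors, by 0.49 ± 0.12 (edgeR adjusted p = 0.0124).

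**Figure D5:**
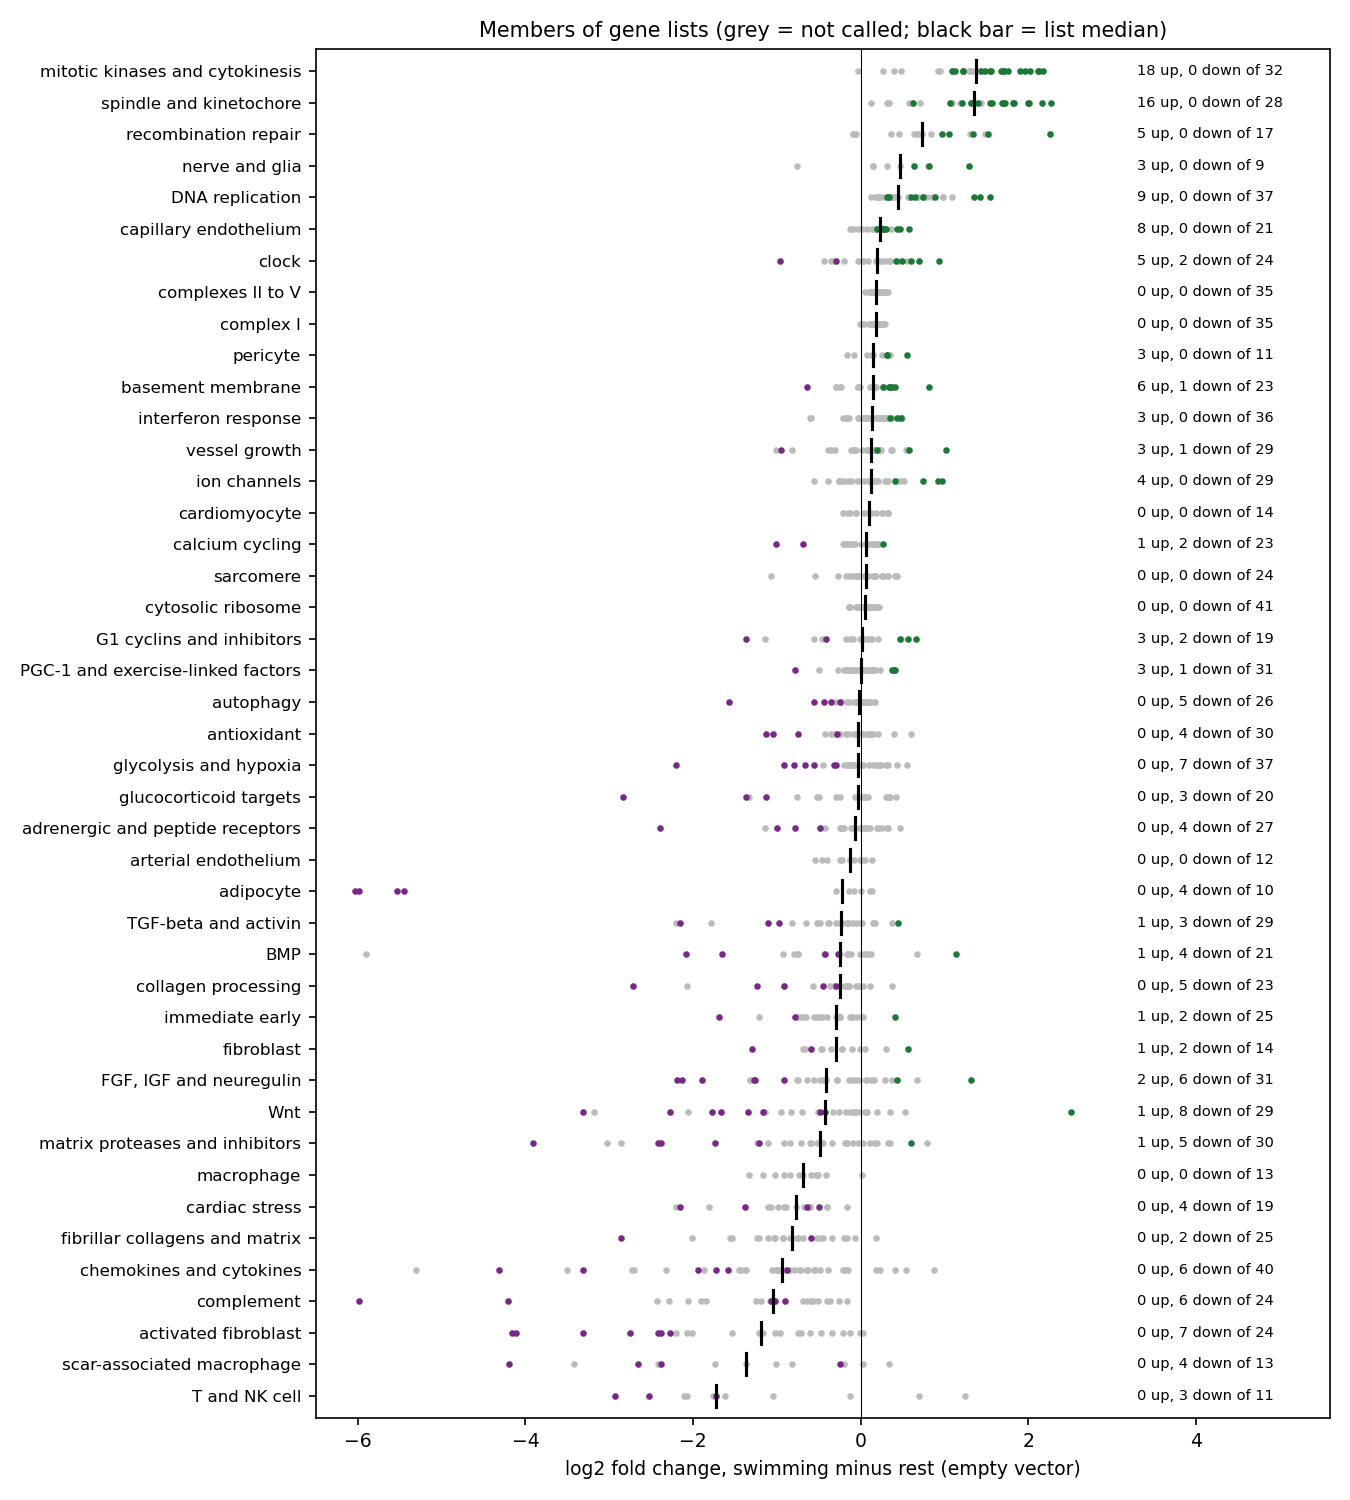
Each row is a gene list, each dot a tested member at its log2 difference of swimming minus rest on the x axis, and each bar the list's median, with the counts of members that rose and fell at the right. Mitotic and replication lists lie to the right of 0, and capillary and pericyte lists slightly to the right. Activated fibroblast and complement lists lie to the left with a wide scatter.

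Complement and chemokine genes that changed all fell, and the rest libraries spread widely. Of 24 complement genes, the plasma proteins that tag and lyse cells, 6 fell and none rose, all 24 lay below 0, and the median was -1.04. Masp1, a protease that starts the lectin branch, measured 24.1, 38.4 and 47 CPM at rest and 10.6, 18.5 and 21 CPM after swimming and fell by 1.03 ± 0.20 (edgeR adjusted p = 0.004), without overlap. Of 40 chemokines and cytokines 6 fell and none rose. Cxcl14 fell by 1.73 ± 0.30 (edgeR adjusted p = 0.00195), from 16.2, 25.3 and 56 CPM to 5.92, 7.22 and 15.3 CPM, and Cx3cl1, the tethered chemokine of endothelium and nerve, by 0.87 ± 0.19 (edgeR adjusted p = 0.00735). The complement count was 2 without swimming replicate 2 or 5, 3 without rest replicate 4 or 5 or swimming replicate 1 or 3, and 13 without miR-21 swimming replicate 2. The chemokine count was 3 without rest replicate 2 or 5 or any swimming replicate other than 2, and again 13 without miR-21 swimming replicate 2. Dropping the adipocyte-high libraries left 3 chemokine genes that fell and 1 that rose, and then the complement and chemokine medians were -0.60 and -0.22.

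Cell markers of the immune lists were mostly not called. None of 13 macrophage markers passed, with a median of -0.69, which was -0.094 without the 3 adipocyte-high libraries. Lyz2, macrophage lysozyme, measured 218, 404 and 1464 CPM at rest and 169, 236 and 350 CPM after swimming (edgeR adjusted p = 0.132). Of 13 markers of scar-associated macrophages 4 fell. Spp1, the secreted protein osteopontin, measured 3.15, 27.1 and 81.8 CPM at rest and 0.501, 1.15 and 6.26 CPM after swimming and fell by 4.19 ± 0.96 (edgeR adjusted p = 0.0123). The 4 falls became 2 without swimming replicate 2 or 3. Without the 3 adipocyte-high libraries 2 scar-associated macrophage markers fell and 1 rose, and the median moved from -1.37 to -0.33. Of 11 T and NK cell markers 3 fell, all at a few CPM, and none did without rest replicate 2 or 5, without swimming replicate 1, 5 or 6, or without the 3 adipocyte-high libraries. Without miR-21 swimming replicate 2 the T and NK cell count was 6, and without swimming replicate 3 it was 1. Serpina3n, an acute-phase inhibitor made by many injured tissues, fell by 3.17 ± 0.74 (edgeR adjusted p = 0.0133), from 107, 286 and 626 CPM to 13.1, 33.2 and 61.2 CPM.

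Adipocyte genes gave large and uneven fold changes. Of 10 tested adipocyte genes 4 fell. Adipoq, the hormone adiponectin, measured 0.67, 2.05 and 26.9 CPM at rest and 0.0765, 0.142 and 0.558 CPM after swimming and fell by 5.54 ± 1.38 (edgeR adjusted p = 0.0196). Cfd, the fat-derived complement factor adipsin, measured 1.04, 7.45 and 148 CPM at rest and 0.297, 0.64 and 1.68 CPM after swimming, and its libraries overlapped. Cfd fell by 5.98 ± 1.54 (edgeR adjusted p = 0.024), with calls lost without swimming replicate 1, 2, 3 or 5. The adipocyte count was 1 without swimming replicate 1, 3 or 5, 2 without rest replicate 5 or swimming replicate 2, and 3 without the adipocyte-high libraries. Of the mesothelial markers, Upk3b fell by 6.24 ± 1.79 (edgeR adjusted p = 0.0383), a call present in 16 of 26 alternatives and lost without any swimming replicate or without rest replicate 2, 3, 4 or 5. Without miR-21 swimming replicate 2, 9 of the 13 mesothelial markers fell, and 6 fell by DESeq2 or without the adipocyte-high libraries.

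Smaller lists of stress and timing genes held a few well separated members. Of 30 antioxidant genes 4 fell: Gpx3, a secreted peroxidase, by 1.05 ± 0.21 (edgeR adjusted p = 0.00451), Mt2, a metal-binding thiol protein, by 1.13 ± 0.28 (edgeR adjusted p = 0.0188), Txnrd1 by 0.28 ± 0.07 and Sod3. Of 30 heat shock genes Hsp90aa1 fell by 0.56 ± 0.11 (edgeR adjusted p = 0.00306) and Hsph1 by 0.75 ± 0.15 (edgeR adjusted p = 0.00436), and 4 fell without rest replicate 2 and 6 without the adipocyte-high libraries. Of 26 autophagy genes 5 fell, Rab4a among them, and 2 or 3 did without rest replicate 2 or 5 or swimming replicate 1, 2, 3 or 5. Vmp1, a membrane protein that helps autophagosomes form and whose gene borders that of miR-21, measured 52.5, 56.2 and 88.3 CPM at rest and 40.2, 45.9 and 50.3 CPM after swimming. It fell by 0.44 ± 0.12 (edgeR adjusted p = 0.0309), without overlap, but lost its call without rest replicate 2 or 5 or swimming replicate 1, 3, 5 or 6.

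Of 24 circadian clock genes 5 rose and 2 fell. Hlf, an output factor of the clock, measured 17.8, 25.1 and 29.6 CPM at rest and 32.2, 36.6 and 54.4 CPM after swimming and rose by 0.70 ± 0.16 (edgeR adjusted p = 0.0107), and the related Tef rose by 0.43 ± 0.10 (edgeR adjusted p = 0.0132). Per2, Per3 and Wee1, which in the textbook clock lie on the opposite arm from Arntl and Clock, rose while Arntl and Clock fell. The hour at which hearts were taken is not stated. The E-box CACGTG, the letters bound by Clock and Arntl, was found in the promoters of 5 of 18 clock genes (27.8%) and of 11.5% of all tested genes. The rises became 3 without rest replicate 4 or 5 or swimming replicate 2, 3 or 5, and 8 without miR-21 swimming replicate 2. Both falls were lost without rest replicate 1 or swimming replicate 2, 3 or 5. The call of Arntl was present in only 7 of 27 alternatives, that of Clock in 22, of Per2 in 19 and of Per3 in 17, and Arntl, Per2 and Per3 did not pass without the 3 adipocyte-high libraries.

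Of 36 interferon response genes 3 rose, with a median of 0.14. The count dropped to 1 in 14 of the 23 runs that left out a library. Xaf1, an interferon-induced promoter of cell death, measured 18.1, 18.5 and 19.5 CPM at rest and 20, 25.5 and 29.2 CPM after swimming and rose by 0.44 ± 0.08 (edgeR adjusted p = 0.00181). Without the 3 adipocyte-high libraries 16 interferon genes rose, 6 did without rest replicate 2 or without miR-21 swimming replicate 2, and 5 without miR-21 swimming replicate 5. Of 9 nerve and glia markers 3 rose. Gfra3, a receptor of sympathetic and sensory nerve growth, measured 0.404, 1.13 and 1.43 CPM at rest and 1.99, 2.4 and 3.71 CPM after swimming and rose by 1.29 ± 0.29 (edgeR adjusted p = 0.00912). The count was 1 without rest replicate 2 or 5 or swimming replicate 1 or 3, and 1 without the adipocyte-high libraries.

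Levels per length of transcript, in the authors' FPKM, put the named genes on a common scale. Among the genes that rose, Ivns1abp, an actin-binding protein, averaged 193 ± 27.1 FPKM at rest and 279 ± 13.8 FPKM after swimming (SD, n = 6 each). Ivns1abp rose by 0.54 ± 0.14 on the log2 count scale (edgeR adjusted p = 0.0179). Sparcl1, a matrix protein of endothelium and pericytes, averaged 140 ± 13.7 FPKM at rest and 195 ± 18.1 FPKM after swimming. Among the genes that fell, Mgp, an inhibitor of tissue calcification, averaged 1076 ± 581 FPKM at rest and 403 ± 116 FPKM after swimming and fell by 1.40 ± 0.32 (edgeR adjusted p = 0.0107). Nnt averaged 264 ± 35.1 and 148 ± 9.71 FPKM in the same order.

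Under the miR-21 vector the same swimming contrast gave 23 changed genes (0.17% of those tested), from 6 rest and 5 swimming libraries that are none of the 12 above. Of the 564 genes that rose under the empty vector, 394 were above 0 under miR-21, with a median of 0.079. Of the 443 that fell, 226 were below 0, with a median of -0.0075. The difference between the swimming effects passed for 73 genes (0.541%), 68 of which had changed under the empty vector and 66 of which had opposite signs under the vectors. The medians of the lists stood side by side as follows. Mitotic kinases and cytokinesis had 1.38 under the empty vector and 0.63 under miR-21, and no member passed the interaction test. DNA replication had 0.45 and 0.42, and again no member passed that test. Activated fibroblast markers had -1.19 and 0.81, and 2 of the 24 passed it, Comp at 6.28 (edgeR adjusted p = 0.0291) and Wisp2 at 3.75 (edgeR adjusted p = 0.033). The miR-21 swimming group includes its adipocyte-high replicate 2, and without the 3 such libraries the interaction passed for 53 genes, Comp and Wisp2 not among them. Leaving out 1 library at a time moved that count between 18 and 358.

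The authors' deposited table of the same comparison lists 17343 genes with a p-value. In the authors' deposited table, 424 genes were higher and 275 lower after swimming at a q-value below 0.05, 699 in all. Of these 686 were tested in the fit described here, where 533 passed in the same direction and 0 in the opposite one.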

How the data were processed

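Total RNA came from TRIzol extraction, and a stranded mRNA kit was used for sequencing, per the labels' protocols. The genome build was GRCm39, per the submitters' processing notes, while aligner, counter and annotation were not given in the sources used here. The deposited gene counts (raw counts, 21878 genes, 23 libraries) were used for every test. Levels per transcript length are the FPKM values deposited by the authors. The authors deposited their own comparison as a fold change (ratio), its log2 and a p-value with a q-value, and only the number and direction of its genes below 0.05 were taken from it. Every per-sample column of the tables used was matched to a sample by its title.

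Genes kept by filterByExpr (13501) were fitted with edgeR 4.0.16 (R 4.3.3), with TMM scaling and a robust quasi-likelihood fit of all 4 groups, and swimming was tested against rest under the empty vector with Benjamini-Hochberg adjustment over all genes. CPM are TMM-scaled. The interaction is the swimming effect under miR-21 minus that under the empty vector. The fit was tested on simulated data. Counts of 13343385 to 14657630 per library mean that a gene at 1 CPM rests on about 13 to 15 counts.

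Lists of genes and the comparison itself were chosen with earlier results of these data known. Genes were named from Sox7 and Vmp1, the 15 largest changes and 15 smallest p-values in each direction (mean of at least 1 CPM, change in at least 5 of 6 swimming libraries, no predicted or clone name), the 10 largest changes without overlap, the 10 highest in FPKM, up to 4 called or 2 uncalled members of each list and the 10 strongest interactions. Gm41885, Ide, Fgfbp3, Btaf1, the genes named with the 17 other libraries and other list members given without a p were singled out after their values were seen. Promoters were matched by gene identifier (GeneID) to RefSeq (GRCm38.p6), which held 10726 of the 13501 genes. Alternatives were RLE scaling, DESeq2 1.42.0, no filter, a mean of at least 1 CPM, limma 3.58.1 voom with quality weights, the 12 libraries alone, a fold minimum of 1.5 and each library left out. The runs without the 3 adipocyte-high libraries and with the title number series were added after the data were seen. Replicates were numbered in accession order, and the count for miR-21 swimming replicate 6 was not analysed here. Some genes that met the naming rule are not reported here.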

Additional observations from a re-analysis of the deposited data

Results flagged for a closer look

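Of 254 tests of a library's distance from the other 5 of its group, over 127 named genes and both groups, 18 exceeded Dixon's critical value on the log2 CPM scale. Chance alone gives about 1 such value in 20 groups. In the rest group replicate 2 was far above the others for Vmp1 at 88.3 CPM, and far below them for Mest at 7.55, Ptrf at 313 and Xirp1 at 311 CPM. Rest replicate 1 stood high for Clock at 53.6 CPM, replicate 3 low for Igf2 at 12.6 CPM and replicate 4 low for Lamb1 at 144 CPM.

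In the swimming group replicate 3 stood high for Igf2 at 130.4 CPM and Per3 at 135 CPM and low for Masp1 at 10.6, Sparcl1 at 541 and Tspan2 at 17.1 CPM. Swimming replicate 4 stood high for Gpx3 at 305, P4ha1 at 64.1 and Spp1 at 6.26 CPM. Replicate 5 stood high for Cav2 at 91.1 CPM and for Wdfy1 at 25.2 CPM, and replicate 2 for the adipocyte gene Adipoq at 0.558 CPM.

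For 24 named genes the swimming effect differed between the vectors in the edgeR interaction test, against 73 of 13501 genes tested (0.541%). The log2 difference, miR-21 minus empty vector, was 1.48 for Rab4a, 1.02 for Wdfy1, 7.44 for Gm41885, -0.76 for Cav1, -0.63 for Cav2, -0.46 for Akap12 and -0.99 for Tspan2, and these 7 passed in all 23 runs that left out a library. It was -0.69 for Meox2, -0.73 for Kitl, -0.76 for Pxdn, -1.86 for Mest, -0.86 for Wee1 and -2.37 for Wif1. For genes of fibroblasts, matrix and signals it was 6.28 for Comp, 3.75 for Wisp2, 1.78 for Fbln1, 2.05 for Bmp2, 1.37 for Inhbb, 2.10 for Cxcl14 and 2.09 for Ccl21a. For the adipocyte genes it was 9.49 for Adipoq, 9.62 for Cidec, 11.13 for Cfd and 9.78 for Car3. Of the 24, only those 7 and Kitl passed without the 3 adipocyte-high libraries, where Cidec was not tested.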

How the results depend on the processing

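The count of 1007 changed genes stayed within 1.5 times under RLE scaling, DESeq2, no filter, a 1 CPM mean filter and a fit of the 12 libraries alone. It was 1689 with voom quality weights, 1555 without the 3 adipocyte-high libraries, 164 with the title number series as a term and 8 with a fold minimum of 1.5. Leaving out 1 library at a time gave 607 to 1922. The interaction count of 73 was 754 by DESeq2, 131 by voom and 25 with the title series, and 18 to 358 without 1 library. The count of 23 under miR-21 was 379 by DESeq2, 0 with no filter, 299 by voom, 134 without the adipocyte-high libraries and 1076 with the title series, and 0 to 86 without 1 library. The causes were not tested. Of 121 named genes that passed, 107 passed without the adipocyte-high libraries, and 95 passed in all of the up to 27 alternatives counted for single genes. Those alternatives were RLE scaling, DESeq2, the 12 libraries alone, no adipocyte-high libraries and each library left out. The no-filter, 1 CPM filter, voom and fold minimum runs were not followed gene by gene. The sign turned for Tnnt2 (-0.044), Lyz2 (0.34) and Btaf1 (-0.0064) with the title series, and Btaf1 ran from -0.019 to 0.11 without 1 library, negative without swimming replicate 6. No paired analysis was possible because the labels give no replicate numbers, and the numbers used here follow accession order. Depth limits mitotic genes near 1 CPM, which rest on few reads.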

Other observations

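A gene near the threshold followed a split inside the swimming group. Ide, the insulin-degrading enzyme, measured 182, 137 and 188 CPM in swimming replicates 3, 4 and 6, and 82.1 to 86.9 CPM in replicates 1, 2 and 5, against 76.9 to 88.8 CPM in the 6 rest libraries. Its log2 difference of 0.61 ± 0.17 passed in the edgeR test (adjusted p = 0.0336) and in 18 of 27 alternatives, and all 3 of those libraries lay above every rest library. Fgfbp3, a nearby gene on chromosome 19 that encodes a carrier of fibroblast growth factors, was highest in the same 3 libraries, at 5.12 CPM in the highest, with a log2 difference of 0.74 that did not pass (edgeR adjusted p = 0.102). Btaf1, another neighbour, ran from 20.9 to 31.7 CPM in the swimming group, again highest in replicates 3, 4 and 6, and its difference between the groups did not pass (edgeR adjusted p = 0.769). These genes were singled out after their values were seen, and no explanation was tested. The gene Kif11 was looked up together with them, and its values are not given here.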
